A study of Mus musculus with 2 samples.

Results

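The genes described here carry or control the movement of sodium, chloride and water across the lung epithelium, and 9 genes of 15113 with a value in at least 1 library were taken by their symbol. They are Scnn1a, Scnn1b, Scnn1g, Atp1b1, Nedd4l, Sgk1, Cftr, Aqp4 and Aqp1. All 9 had a row in both tables, so none was counted as 0. The RNA came from CD45-negative, Sftpc-positive lung epithelial cells of C57BL/6 mice aged 6 to 8 weeks, isolated by flow sorting. The tumour-bearing group had received 1000000 luciferase-labelled cells of LLC, a mouse line derived from Lewis lung carcinoma, under the skin of the back, in a model of spontaneous spread to the lung, and the control group was wild type without a tumour. Each group held 1 library, how many mice gave each library is not stated in the labels, and no test of the conditions was possible, so no p-value is given.

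The air spaces of the lung are kept nearly dry by active sodium uptake. Sodium enters the epithelial cell through the epithelial sodium channel ENaC on the air side, is pumped out on the blood side by the Na,K-ATPase, and chloride and water follow through channels such as CFTR and the aquaporins and between cells. The ubiquitin ligase NEDD4L removes ENaC from the membrane, and the kinase SGK1, itself a steroid-induced gene, restrains NEDD4L.

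Levels are given in RPKM (reads scaled to gene length and to the library's read total), so levels of different genes can be set side by side. Library totals recovered from the RPKM steps were 5335352 reads for the control and 5387114 reads for the tumour-bearing library. Folds are direct ratios of RPKM with exact 95% intervals from recovered reads, which cover counting error only, since PCR reads without molecular identifiers are not independent molecules. The genes of the sort gave 94902.5 and 54968.1 RPKM for Sftpc and 12 and 2 reads for Ptprc, which encodes CD45, in the control and tumour-bearing library. Other epithelial markers were also present, with summed RPKM of 1807.1 and 2976.3 for 12 genes of the thin alveolar type 1 (AT1) cell and 32323.9 and 36442.1 for 6 club cell genes, so the sort markers do not show that either library held alveolar type 2 cells alone. The 7 leukocyte markers, Ptprc among them, summed to 6.09 and 5.30 RPKM. The 8 macrophage markers summed to 15.0 and 46.7 RPKM, with 4 tested genes higher and 1 lower in the tumour-bearing library.

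Tumour-bearing mice gave higher levels of the sodium entry and exit genes, the chloride channel gene and the SGK1 gene had ratios near 1, and of the 2 aquaporin genes Aqp1 was higher. Of the 9 genes, 5 (Scnn1a, Scnn1b, Scnn1g, Atp1b1 and Aqp1) were at least 2-fold higher on the log2(RPKM + 1) scale, where 9.38% of 12288 tested genes were, and 0 were at least 2-fold lower, where 6.53% of tested genes were. Tested genes reached 1 RPKM in either library. The median log2 ratio of the 9 genes was 1.37, against 0.06 over all tested genes. The 9 genes were chosen with earlier results of these data known, so these comparisons do not show that the class stands out. The intervals of all 5 lay wholly past 2-fold. With a threshold of 4-fold, Aqp1 alone of the 9 was higher, where 1.66% of tested genes were.

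**Figure D1:**
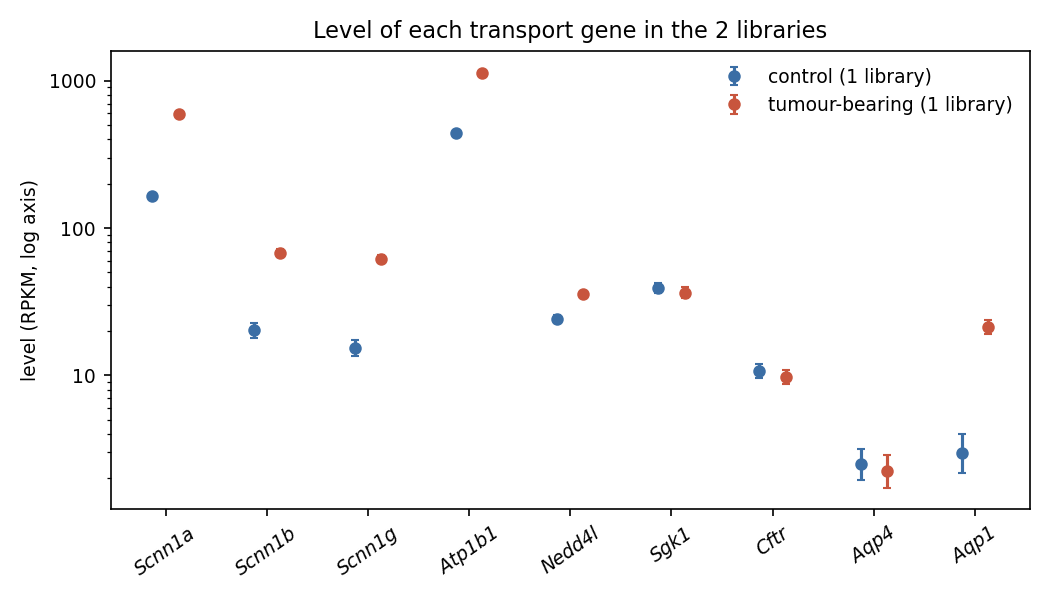
Level of each of the 9 transport genes in the control and the tumour-bearing library, in RPKM on a log axis. Points are the single library of each group, and bars are exact 95% Poisson intervals of the reads, which cover counting error only. The pairs of Scnn1a, Scnn1b, Scnn1g, Atp1b1 and Aqp1 stand apart, while the intervals of Sgk1, Cftr and Aqp4 overlap.

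ENaC is built from alpha, beta and gamma subunits, encoded by Scnn1a (GeneID 20276, chromosome 6, 125314271 to 125344943 on GRCm38, the assembly mm10 denotes), Scnn1b (GeneID 20277, chromosome 7, 121865038 to 121918728) and Scnn1g (GeneID 20278, chromosome 7, 121734420 to 121768482). Scnn1a, the subunit that the channel needs to conduct, was at 163.7 RPKM in the control (3070 reads) and 590 RPKM in the tumour-bearing library (11174 reads). It was 3.61-fold higher (3.46 to 3.75) with tumours, a log2 ratio of 1.84, and moved from rank 328 to rank 65 among the genes of its library. Scnn1b was at 20.2 RPKM (306 reads) and 67.5 RPKM (1034 reads), 3.35-fold higher (2.94 to 3.81). Scnn1g was at 15.4 RPKM (244 reads) and 61.7 RPKM (985 reads), which is 3.998-fold higher, with an interval of 3.47 to 4.62. The intervals of the ratios overlapped for each pair of subunits. They cover counting error only, and whether the fold differs between subunits was not tested.

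The make-up of the channel transcripts was close to equal in the 2 libraries while their sum went from 199 to 719 RPKM. Scnn1a held 82.1% of the summed RPKM of the subunits in control cells and 82.0% in tumour-bearing mice. Scnn1b held 10.1% and 9.38%, and Scnn1g 7.74% and 8.57%. On reads not divided by gene length, Scnn1a took 84.8% (83.6 to 86.0, exact Clopper-Pearson interval) and 84.7% (84.1 to 85.3) of the ENaC reads. The alpha subunit was thus 8.12 times the beta and 10.6 times the gamma level in the control library, and 8.74 and 9.57 times in the tumour-bearing library.

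**Figure D2:**
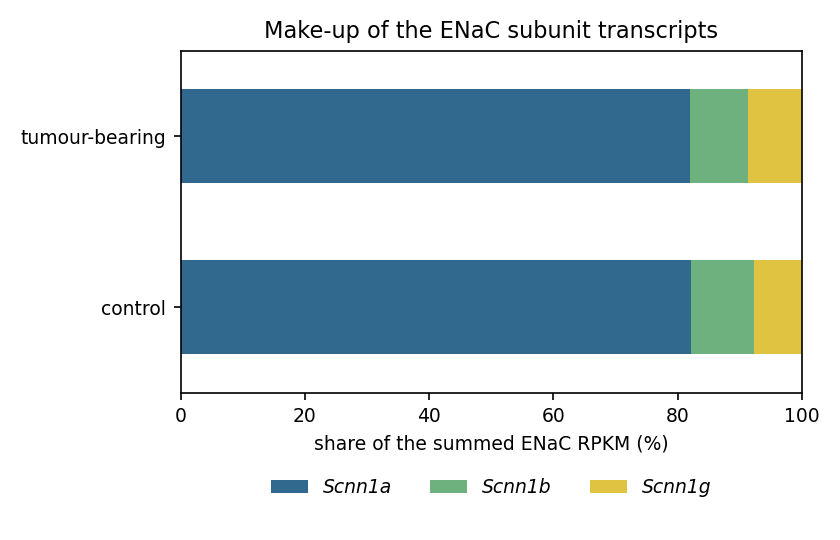
Share of Scnn1a, Scnn1b and Scnn1g in the summed RPKM of the ENaC subunits, in percent, in each library. Each bar is 1 library. Scnn1a fills 82.1% of the control bar and 82.0% of the tumour-bearing bar.

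Scnn1b and Scnn1g lie beside each other on chromosome 7, and the 250 bases before a start of each in the RefSeq promoter table are shown because both genes were higher together. For Scnn1g that start is base 121734479, which lies 59 bases inside the gene interval given above, and distances are counted from it. Sequences are the plus strand for these genes, from RefSeq on GRCm38.p6, with capitals marking matches on either strand to the motifs searched. These were the GC box GGGCGG, the TATA box TATAAA, the glucocorticoid receptor half-site TGTTCT and the full glucocorticoid response element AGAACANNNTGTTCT, which contains the half-site. Of 32851 such windows in the mouse RefSeq table, 32.7% held the GC box, 12.4% the TATA box, 16.1% the half-site and 0.00913% (3 windows) the full element. Windows of 6 of the 9 genes were used here. Nedd4l and Aqp4 were not among the 6, and whether they have such windows is not reported.
Scnn1b, chr7:121864788-121865037: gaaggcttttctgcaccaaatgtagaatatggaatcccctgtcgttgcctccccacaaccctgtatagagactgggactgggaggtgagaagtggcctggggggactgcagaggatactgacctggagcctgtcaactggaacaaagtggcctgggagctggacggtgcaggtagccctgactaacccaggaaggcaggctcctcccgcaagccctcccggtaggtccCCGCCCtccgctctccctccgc
Scnn1g, chr7:121734229-121734478: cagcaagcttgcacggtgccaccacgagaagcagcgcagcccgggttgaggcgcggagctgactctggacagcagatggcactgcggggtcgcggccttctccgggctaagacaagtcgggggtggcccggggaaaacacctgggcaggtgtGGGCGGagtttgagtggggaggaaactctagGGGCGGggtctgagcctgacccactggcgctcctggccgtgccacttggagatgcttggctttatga
The Scnn1b window held 1 GC box, 22 bases before its start, and the Scnn1g window 2, at 98 and 67 bases before base 121734479. Neither held the TATA box, the half-site or the full element, which says only that these letters are not in these windows.

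ENaC is opened by proteases that cut its subunits, and these genes differed less than the channel genes. Of 10 listed ENaC and protease genes, all tested, 4 were at least 2-fold higher and 0 lower, with a median log2 ratio of 0.57, and 3 of the 4 are the subunits themselves. The fourth was Furin, the Golgi protease that cuts the alpha and gamma subunits, at 35.3 and 71.7 RPKM, 2.03-fold higher (1.87 to 2.21). Furin stood at the threshold, and the list had 3 genes past 2-fold under each of the 4 scalings tried. St14, which encodes the surface protease matriptase, was 1.59-fold higher (1.45 to 1.74), and Tmprss4, another transmembrane serine protease gene, was 1.42-fold higher (1.28 to 1.57). The protease genes Prss8 and Tmprss2, named after their values were seen, had ratios of 0.937 (0.849 to 1.03) and 1.07 (0.93 to 1.24). Prss8 was at 83.8 and 78.5 RPKM. The protease inhibitor gene Spint1 was 1.35-fold higher (1.21 to 1.52).

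The Na,K-ATPase exports the sodium that ENaC admits. Its beta 1 subunit gene Atp1b1 (GeneID 11931, chromosome 1, 164437099 to 164458355), which brings the pump to the cell surface, was the most abundant of the 9 genes, at 439 RPKM in the control (6063 reads) and 1136 RPKM in the tumour-bearing library (15849 reads). It was 2.59-fold higher (2.51 to 2.67) in the tumour-bearing library and stood at rank 103 and rank 26 of all genes. Its window, shown because the gene was higher beside the ENaC genes, lies on the minus strand and is printed 5′ to 3′ along the gene.
Atp1b1, chr1:164458356-164458605: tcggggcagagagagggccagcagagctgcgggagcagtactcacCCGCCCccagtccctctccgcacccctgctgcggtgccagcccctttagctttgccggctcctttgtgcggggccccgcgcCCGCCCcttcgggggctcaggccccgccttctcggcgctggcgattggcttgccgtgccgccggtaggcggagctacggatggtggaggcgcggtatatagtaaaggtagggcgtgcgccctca
It held 2 GC boxes, at 205 and 124 bases before the start, and no match to the other motifs.

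Of 13 listed pump genes 9 were tested, with 5 past 2-fold upwards, 0 downwards and a median log2 ratio of 1.05. Among the 5 were Fxyd1, Fxyd5 and Atp1b2, all low beside Atp1b1. Fxyd1, encoding the pump regulator phospholemman, had 4 and 23 reads, a 5.70-fold ratio (1.95 to 22.6), and Fxyd5, encoding the regulator dysadherin, had 15 and 38 reads, a 2.51-fold ratio (1.35 to 4.91). Fxyd3, encoding another regulator of the pump, was at 12.5 and 13.5 RPKM, a ratio of 1.07 (0.661 to 1.75). The beta 2 subunit gene Atp1b2, named after its values were seen, had 6 and 32 reads and reached 2.01 RPKM in the tumour-bearing library. With a pseudocount of 5 only Atp1b1 of this list stayed past 2-fold. Atp1b3, the beta 3 subunit gene, also named after its values were seen, was at 68.8 RPKM in both libraries, with a ratio of 0.999 (0.897 to 1.11).

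**Figure D3:**
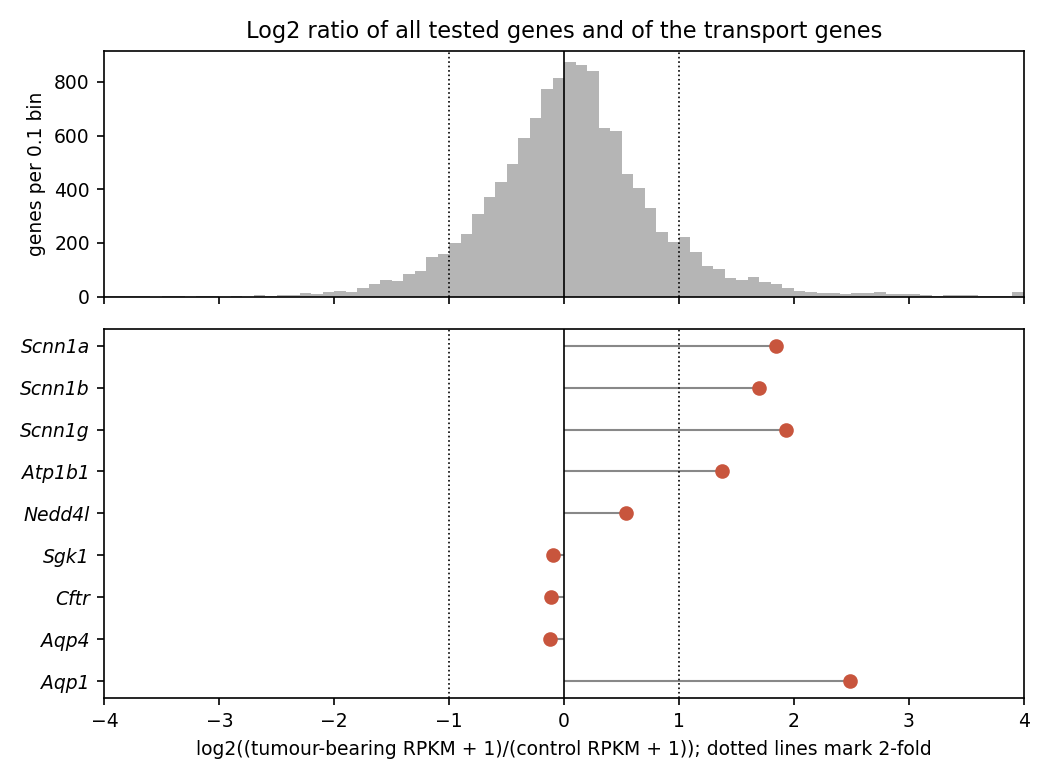
The upper panel counts the 12288 tested genes by log2((tumour-bearing RPKM + 1)/(control RPKM + 1)) in bins 0.1 wide, with genes beyond 4 in either direction placed in the end bins. The lower panel gives the same quantity for each transport gene, with 1 library per group and dotted lines at 2-fold. The 5 higher genes lie right of the upper 2-fold line, between 1.37 and 2.48, and Sgk1, Cftr and Aqp4 lie just left of 0.

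The regulators of ENaC turnover differed less than the channel. Nedd4l (GeneID 83814, chromosome 18, 64884480 to 65217826) was at 24.2 RPKM in the control (1061 reads) and 35.6 RPKM in the tumour-bearing library (1573 reads), 1.47-fold higher (1.36 to 1.59) and within 2-fold. Sgk1 (GeneID 20393, chromosome 10, 21882184 to 21999903) was at 39.1 RPKM (651 reads) and 36.5 RPKM (613 reads), a ratio of 0.933 with an interval of 0.834 to 1.04. The Sgk1 interval includes 1 and lies below the intervals of the ENaC subunit ratios. It covers counting error only, so with 1 library per group a difference between the conditions was not tested. The level of Scnn1a was 6.76 times that of Nedd4l in the control and 16.6 times in the tumour-bearing library, and the level of Sgk1 was 1.61 and 1.02 times that of Nedd4l.

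Of 17 listed genes of ubiquitin ligases and of SGK and WNK kinases with their partners, 14 were tested and 0 lay past 2-fold in either direction, with a median log2 ratio of 0.10. Wnk4, a kinase gene of renal salt handling, was 1.49-fold lower (1.18 to 1.88), at 8.31 and 5.59 RPKM. Mlst8, a subunit gene of the mTOR complexes named after its values were seen, was 2.02-fold lower (1.17 to 3.59) on direct RPKM, with 42 and 21 reads. Oxsr1, a kinase gene that acts downstream of the WNK kinases, was 1.39-fold higher (1.18 to 1.63). Rictor, encoding the defining subunit of the mTOR complex that activates SGK1, was likewise 1.39-fold higher (1.21 to 1.61). The 14-3-3 genes Ywhab and Ywhae, whose proteins bind phosphorylated NEDD4L, were 1.27-fold higher (1.16 to 1.39) and at a ratio of 1.00 (0.955 to 1.05), Ywhae being the most abundant gene of the list at 291 RPKM in both libraries.

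Sgk1 was not among the glucocorticoid-induced genes that were higher. Of 9 listed steroid receptor, steroid-converting and glucocorticoid-induced genes, 5 were past 2-fold upwards, 0 downwards and the median log2 ratio was 1.08. The count was 4 under upper-quartile scaling or with a pseudocount of 5, and the median 1.79 with a filter at 5 RPKM, which leaves 8 genes. Fkbp5, a co-chaperone of steroid receptors, went from 15 to 773 reads (0.724 and 36.9 RPKM). Zbtb16, a zinc finger factor gene induced by glucocorticoids, was at 2.67 and 28.5 RPKM, 10.7-fold higher (8.37 to 13.7). Per1, a clock gene and the most abundant of the list by the mean of both libraries, was 2.14-fold higher (1.98 to 2.33). The genes of the enzymes that activate and inactivate glucocorticoids, Hsd11b1 and Hsd11b2, differed 14.4-fold (5.32 to 54.5) and 10.5-fold (6.37 to 18.4), upwards to 7.80 and 17.8 RPKM. In the same libraries 10 of 10 immediate early genes, a class to which Sgk1 is often assigned because serum induces it, were below 0 in log2 ratio, with 7 at least 2-fold lower and summed RPKM of 5254.9 and 2015.0. The part of either group of genes in the Sgk1 value was not tested.

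Sgk1 has 6 annotated start windows in the RefSeq table, and 1 of them is shown because it is among the 3 windows in the whole table that hold the full glucocorticoid response element.
Sgk1, chr10:21993640-21993889: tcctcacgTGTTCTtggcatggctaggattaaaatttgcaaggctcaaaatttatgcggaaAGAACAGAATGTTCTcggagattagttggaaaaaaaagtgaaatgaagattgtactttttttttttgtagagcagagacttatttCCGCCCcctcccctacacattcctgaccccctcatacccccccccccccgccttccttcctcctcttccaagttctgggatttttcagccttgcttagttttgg
The start of this window is base 21993890, which lies 111706 bases inside the Sgk1 interval given above. On the plus strand of GRCm38.p6, the element begins 189 bases before this start and provides 2 of the 3 half-sites of the window, the other lying at 242 bases. A GC box begins at 104 bases. The windows of Scnn1b, Scnn1g, Atp1b1, Cftr and Aqp1, 1 for each gene, held 0 full elements and 0 half-sites. Of all windows, 0.00913% held the full element and 16.1% a half-site, so 0 in so few windows does not set these genes apart. Scnn1a had no window. Which Sgk1 start was used in these cells was not measured here, and a match is not evidence of binding.

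Beta-adrenergic signals raise alveolar sodium uptake through cAMP, and this input showed no shared direction. Of 15 listed genes 14 were tested, 6 above and 8 below 0, with a median log2 ratio of -0.09. Prkar2a, a regulatory subunit gene of protein kinase A, was 1.88-fold higher (1.68 to 2.11), Pde4b, a cAMP-degrading enzyme gene, 1.91-fold higher (1.47 to 2.50) and Adcy7, an adenylyl cyclase gene, 1.69-fold lower (1.56 to 1.84). Gnas, encoding the stimulatory G protein and the most abundant of the list, was 1.09-fold lower (1.05 to 1.13). The 1 gene past 2-fold was Adcy4, an adenylyl cyclase gene named after its values were seen, with 2 and 33 reads, a 16.3-fold ratio (4.18 to 141). Adcy9, another cyclase gene named after its values were seen, was 2.06-fold lower (1.47 to 2.92) on direct RPKM but within 2-fold on the log2(RPKM + 1) scale of the counts.

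**Figure D4:**
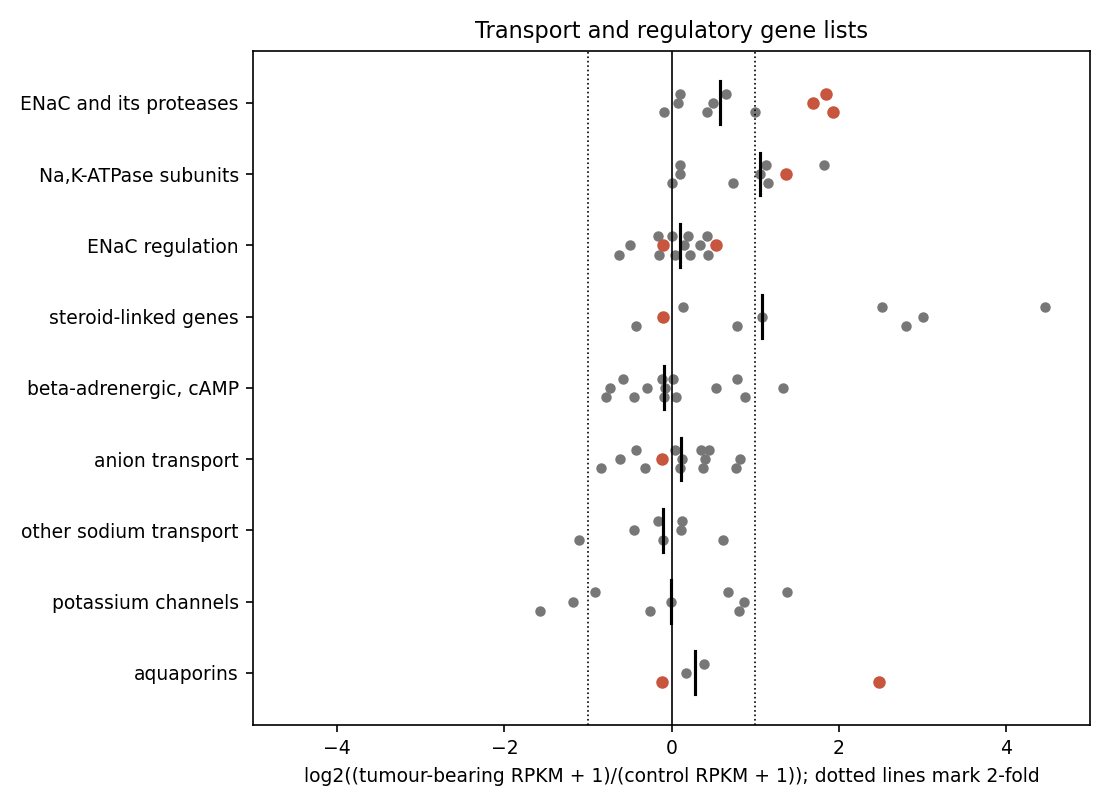
Log2 ratio on the log2(RPKM + 1) scale of each tested gene in 9 lists of transport and regulatory genes, with 1 library per group. Red points are the 9 transport genes, grey points the other genes, and black bars list medians, with dotted lines at 2-fold. The red ENaC points lie between 1.69 and 1.93, right of the proteases, and the points of the ENaC regulation and anion transport lists stay inside the dotted lines.

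Cftr (GeneID 12638, chromosome 6, 18170687 to 18322770) encodes the cAMP-gated chloride and bicarbonate channel that is defective in cystic fibrosis. It was at 10.7 RPKM in the control (359 reads) and 9.80 RPKM in the tumour-bearing library (333 reads), a ratio of 0.919 with an interval of 0.789 to 1.07. The interval includes 1, and the level of Scnn1a was 15.3 times that of Cftr in the control and 60.2 times in the tumour-bearing library. Ionocyte markers, those of the airway cell richest in this channel, were at or near 0, with 4 of 4 at 0 in the control and a summed level of 1.43 RPKM in the tumour-bearing library.

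The anion transport genes as a list lay close to equal. Of 17 listed genes 14 were tested, 0 lay past 2-fold, and the median log2 ratio was 0.11. Slc26a9, an epithelial chloride transporter gene and the most abundant of them by the mean of both libraries, was at 81.0 and 64.8 RPKM, 1.25-fold lower (1.16 to 1.35). Slc26a4, encoding the anion exchanger pendrin, was 1.62-fold lower (1.26 to 2.10), and Slc9a3r2, a scaffold gene of apical transporters, was 1.81-fold lower (1.62 to 2.02). Lrrc8a, the core subunit gene of the volume-regulated anion channel, was 1.88-fold higher (1.53 to 2.33), and Slc4a4, a sodium bicarbonate cotransporter gene, was 1.43-fold higher (1.20 to 1.69). Clcn2, a chloride channel gene named after its values were seen, was 3.07-fold higher (1.47 to 7.02) on direct RPKM, with 10 and 31 reads, and within 2-fold with 1 RPKM added.

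Sodium routes other than ENaC were not higher as a group. Of 10 listed genes 7 were tested, with 0 past 2-fold upwards, 1 downwards and a median log2 ratio of -0.10. The lower gene was Slc4a5, a sodium bicarbonate cotransporter gene, at 24.3 and 10.8 RPKM, 2.26-fold lower (1.97 to 2.59). Slc34a2, the phosphate cotransporter gene of alveolar type 2 cells, was at 3998.5 and 3565.0 RPKM, a log2 ratio of -0.17. Slc5a1, the sodium-glucose cotransporter gene SGLT1, was 1.67-fold higher (1.26 to 2.23).

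Potassium channels recycle the potassium that the pump brings in, and these genes went both ways. Of 14 listed genes 9 were tested, with 1 past 2-fold upwards, 2 downwards and a median log2 ratio of -0.01. Kcnk1, a two-pore channel gene, was at 21.8 and 58.5 RPKM, 2.69-fold higher (2.33 to 3.10), and Kcnj15, an inward rectifier gene and the most abundant of the list by the same mean, was 1.82-fold higher (1.74 to 1.92), at 84.2 and 153.6 RPKM. Kcnk5, another two-pore channel gene, was 3.84-fold lower (2.71 to 5.56), at 8.69 and 2.26 RPKM, and Kcne3, an accessory subunit gene named after its values were seen, had 9 and 0 reads, at least 3.03-fold lower against a floor of 3 reads. Kcne2, another accessory subunit gene, was 1.91-fold lower (1.69 to 2.16).

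Aquaporins are water channels with separate places in the lung: in rodents AQP5 lies on the air side of AT1 cells, AQP4 on the blood side of airway epithelium and AQP1 in capillary endothelium and red cells. Aqp1 (GeneID 11826, chromosome 6, 55336299 to 55348555) was at 2.99 RPKM in the control (44 reads) and 21.3 RPKM in the tumour-bearing library (317 reads), 7.14-fold higher (5.19 to 10.0). That was the highest ratio of the 9 genes, and its log2 ratio of 2.48 exceeded that of 98.9% of tested genes.

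The window of Aqp1 is shown because this gene differed most.
Aqp1, chr6:55336049-55336298: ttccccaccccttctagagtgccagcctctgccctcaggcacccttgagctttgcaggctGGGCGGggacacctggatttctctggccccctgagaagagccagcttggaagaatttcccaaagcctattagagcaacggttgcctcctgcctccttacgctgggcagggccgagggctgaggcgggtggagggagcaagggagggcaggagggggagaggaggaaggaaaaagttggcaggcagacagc
This plus-strand window held 1 GC box, 190 bases before the start, and no match to the other motifs.

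Aqp4 (GeneID 11829, chromosome 18, 15389394 to 15410982) was at 2.51 RPKM (68 reads) and 2.23 RPKM (61 reads), a ratio of 0.888 whose interval of 0.618 to 1.27 includes 1. No difference in Aqp4 beyond counting error was thus seen between the 2 libraries. Aqp5 was the most abundant, at 271 and 356 RPKM, 1.31-fold higher (1.24 to 1.39), and Aqp3, whose protein also passes glycerol, had a ratio of 1.14 (0.892 to 1.46). The Aqp5 level was 90.8 times that of Aqp1 in the control and 16.7 times in the tumour-bearing library. Of 11 listed aquaporin genes 4 were tested, and Aqp1 was the 1 gene past 2-fold.

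Markers of some other cell types were higher too, while the club and leukocyte lists had median log2 ratios of -0.51 and -0.15. Endothelial markers, the cells in which AQP1 is best known, had 12 of 15 genes at least 2-fold higher, a median log2 ratio of 1.59 and summed RPKM of 119 and 266. Pecam1, the CD31 gene, was 5.91-fold higher (4.40 to 8.06), at 3.01 and 17.7 RPKM. Not all of the list was higher. The ratio of Tek, an angiopoietin receptor gene, was 0.850 (0.622 to 1.16), and the VEGF receptor gene Kdr was 1.89-fold lower with tumours (1.47 to 2.43). Erythroid markers summed to 16.1 and 25.7 RPKM, and of 7 listed genes 3 were tested, 2 above and 1 below 0. For mesothelial markers, another cell type with AQP1, the sums were 1.74 and 17.1 RPKM, nearly all of it Msln, and 2 of 4 were at 0 in the control, and 1 with tumours. The part of these cells in the Aqp1 value was not tested.

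AT1 markers were also higher in the tumour-bearing library, as were the ENaC genes and Atp1b1, which both alveolar cell types express. With 1 ratio per gene, whether they vary together was not tested. Of 12 AT1 genes 12 were above 0 and 7 at least 2-fold higher, with a median log2 ratio of 1.09 and summed RPKM of 1807.1 and 2976.3, 1.65 times as high in the tumour-bearing library. Hopx, a transcriptional cofactor gene of AT1 cells, was 3.74-fold higher (3.32 to 4.22), while Ager, the receptor gene that is the most abundant AT1 marker, was 1.46-fold higher and Aqp5 1.31-fold. AT2 markers had a median of -0.56, with 2 of 12 past 2-fold downwards and 1 upwards. Fibroblast markers had 8 of 8 tested genes at least 2-fold higher, from a summed 146 to 803 RPKM, and ciliated markers had a median of 0.10 with sums of 244 and 272 RPKM. In bulk RNA more cells of a type and more RNA per cell cannot be told apart, and the part of AT1 cells in the ENaC and Atp1b1 values was not tested.

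**Figure D5:**
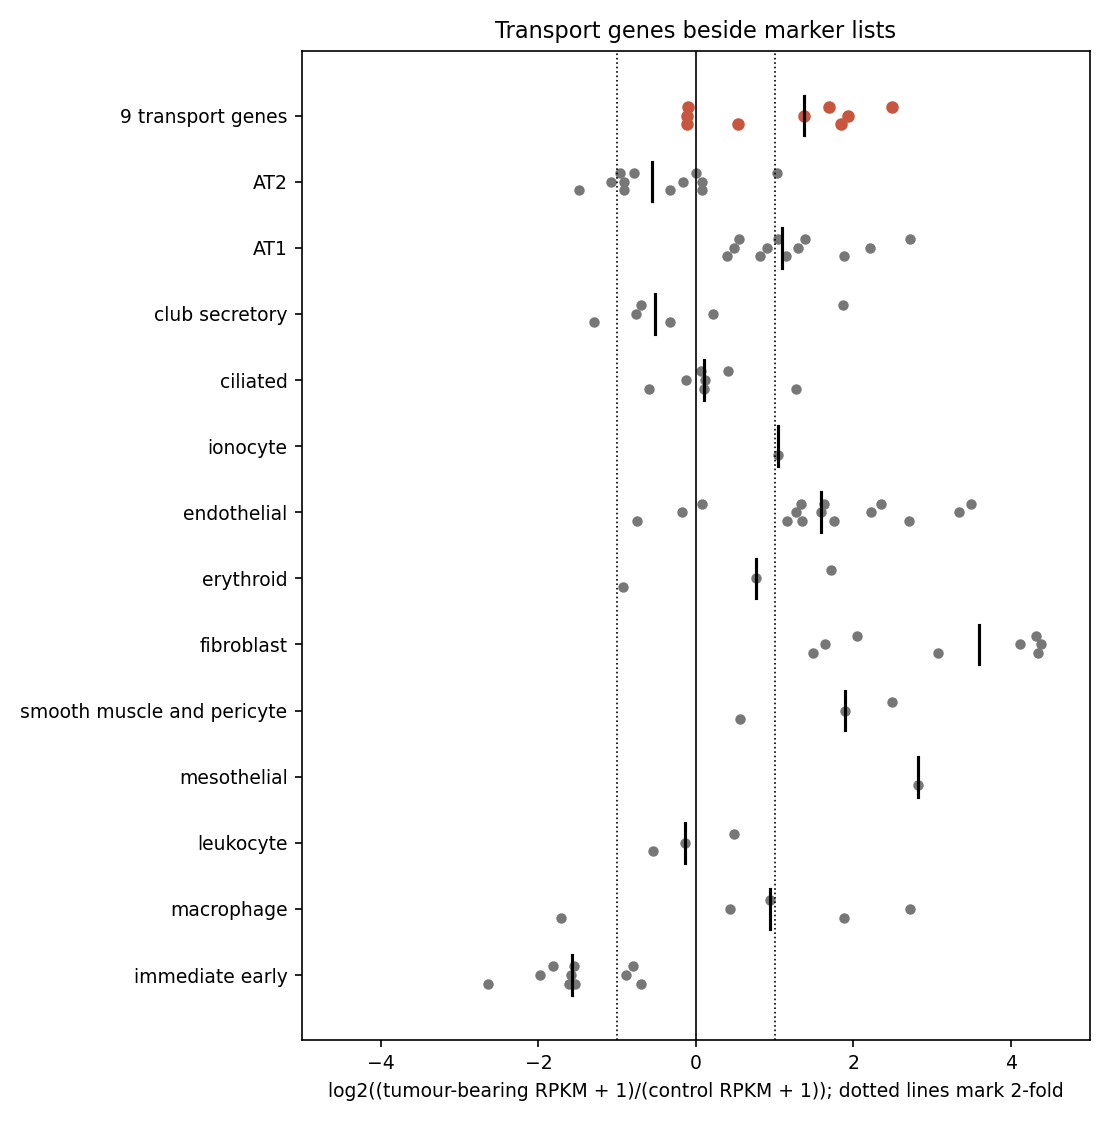
Log2 ratio on the log2(RPKM + 1) scale of the 9 transport genes (red, top line) and of the tested genes of each marker list (grey), with black bars at list medians and dotted lines at 2-fold. Each group is 1 library. The AT1 median of 1.09 and the endothelial median of 1.59 lie on either side of the transport gene median of 1.37, and the AT2 median of -0.56 lies left of 0.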

How the data were processed

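RNA of sorted lung epithelial cells was sequenced in 2 libraries, 1 per group. Per the labels' protocols, polyadenylated RNA was selected, fragmented, copied from random primers and amplified by PCR. Per the submitters' processing notes, Trimmomatic and mm10 were used, without versions. For the aligner, counter, annotation and strand setting nothing was given in the sources used here. The authors deposited RPKM per gene, per the file headers. Reads of antisense or overlapping genes may therefore be shared.

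RPKM divides by the library total, and Sftpc alone made up 18.6% and 11.2% of the control and tumour-bearing sums of RPKM, which lowers the other values unequally. Totals were taken as the largest whole number at which the 60 last rows of a table, at 1 read each, implied whole gene lengths. Reads were then worked up from the foot, because rows are in order of reads. Before the tables were joined, 99.4% of 13102 genes in both gave equal lengths, and reads were recovered for 15084 of 15113 genes. The totals and reads are estimates of this work.

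Genes that reached 1 RPKM in either library were compared by log2((tumour-bearing RPKM + 1)/(control RPKM + 1)), with a size rule of 2-fold in place of a test. Ratio intervals are exact conditional binomial (Clopper-Pearson) intervals. A gene with 0 reads in 1 library has a bound against 3 reads in that library. The members and lists were chosen with earlier results of these data known. All 9 members were named, and for each pathway list up to 4 other genes with the largest absolute log2 ratio among those reaching 5 RPKM, and the most abundant. Some genes that this rule names are not reported here. Coordinates and promoters came from RefSeq tables of GRCm38.p6, and 15080 genes matched by GeneID. Alternatives were 4 scalings (trimmed mean, upper quartile, sum without Sftpc, median of tested genes), pseudocounts of 0.1 and 5, no filter, a filter at 5 RPKM, thresholds of 1.5-fold and 4-fold, and recovered reads with 0.5 added. Wholly past 2-fold, and the alternatives for lists, were added after the data were seen. The procedure was tested on simulated data built from the recovered reads and lengths. Library totals were searched there only near the known values, so this does not check the totals reported here. Python 3.11.15, pandas 2.3.3, scipy 1.17.1 and matplotlib 3.10.9 were used.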

Additional observations from a re-analysis of the deposited data

How the results depend on the processing

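The number of transport genes at least 2-fold higher was 5 under the 4 scalings, both pseudocounts, both filters and recovered reads. It was also 5 by the added rule that the interval lie wholly past 2-fold. The share of all tested genes at least 2-fold higher was 9.38% in the main setting and 8.09% to 8.79% under the scalings. That share was 12.5% with a pseudocount of 0.1 and 12.8% on recovered reads. It was 7.63% with no filter and 7.95% with a filter at 5 RPKM. At the 1.5-fold threshold 5 transport genes were higher, where 19.4% of tested genes were. At 4-fold the number was 1, and the share 1.66%. The number at least 2-fold lower was 0 under every alternative run. Their median ranged from 1.28 under upper-quartile scaling to 1.53 with a filter at 5 RPKM, which leaves out Aqp4, and from 0.95 to 1.53 when 1 of the 9 genes was left out, while the single genes ran from -0.12 to 2.48. The scalings shifted all genes by 0.05 to 0.09 on the log2 scale. With a pseudocount of 5 the share of all tested genes at least 2-fold higher was 3.01% and lower 1.55%, and the Na,K-ATPase list had 1 gene past 2-fold in place of 5. Its median then was 0.38, which follows from the low level of the other 4. The median of other sodium transporters was -0.10, and 0.00 with a filter at 5 RPKM or on recovered reads. The potassium channel median was 0.33 with that filter and 0.08 with no filter, against -0.01. No paired analysis was possible because each group held 1 library, and no library could be left out for the same reason. Depth limits Aqp4, Fxyd1 and other genes under about 100 reads, whose intervals span over 1.5-fold. Aqp1 is among them, with 44 reads in the control and an interval of 5.19 to 10.0. Some genes with more reads have intervals as wide, such as Aqp3 with 125 and 144 reads (0.892 to 1.46).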
